A study of Homo sapiens with 15 samples.

Results

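The genes that changed in HEK293T cells after 4 h with IXA4, set against cells that received the vehicle DMSO for the same time, are described here across the whole transcriptome. HEK293T is an established line derived from human embryonic kidney cells, and the series describes IXA4 as an activator of IRE1 and its product XBP1s, a branch of the unfolded protein response (UPR). The comparison rests on 6 libraries, 3 with IXA4 and 3 with DMSO, out of 14 libraries with a matched column and 15 samples in the series, and all genes of the count table were used. All cells were kept at 37 °C, and the other groups, used here only for direct comparisons with IXA4, were the compounds IXA1 (2 libraries) and IXA6 (3 libraries) and the ER stressor thapsigargin (Tg, 3 libraries). No dose is given for any compound in the sources used here. The labels speak of independent experiments, so the tests below measure the spread between cultures of a single cell line.

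The UPR is the response of cells to unfolded proteins in the endoplasmic reticulum (ER). Its 3 sensors are IRE1, which cuts the XBP1 mRNA so that it encodes the active transcription factor XBP1s, ATF6, which is cleaved in the Golgi to release a transcription factor, and PERK, a kinase that slows translation and raises the factor ATF4, a step shared with the integrated stress response (ISR). XBP1s and ATF6 act on genes for ER folding, translocation, degradation and transport, in part through ER stress elements in promoters. IRE1 can also cut other mRNAs at the ER membrane, a process called regulated IRE1-dependent decay (RIDD).

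With IXA4, 95 genes rose and 11 fell of 13243 tested (edgeR's quasi-likelihood test, Benjamini-Hochberg adjusted p under 0.05 over all genes), which is 0.717% and 0.0831% of the genes, or 0.800% in all. Leaving out each of the 6 libraries in turn, 61 to 84 genes rose and 4 to 11 fell, with 4 falls without IXA4 replicate 1 and 5 without DMSO replicate 3 or IXA4 replicate 2, and a fit of the 6 libraries alone gave 154 rises and 44 falls. Levels are given below as CPM, the counts of a gene relative to the library's scaled total. The rises were small. The median rise was 1.28-fold, and 14 of the 95 rose at least 1.5-fold, of which 2 rose at least 2-fold. Among the 11 genes that fell, 2 fell at least 2-fold. Every IXA4 library was above every DMSO library for all 95 and below for all 11. These genes were picked by a test on the same libraries, so this is not separate support. Over all genes tested such separation held for 9.20% and 8.90%. At an unadjusted p under 0.05 there were 1216 genes (9.18%).

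Of the 95 genes that rose, 46 lay in 12 lists of ER and early secretory functions, from chaperones and translocon subunits to transport coats. These lists hold 251 measured genes, so that 18.3% of them rose, and 0 fell. The share of all counts that fell on these 251 genes was 3.479%, 3.502% and 3.522% in the DMSO libraries and 3.894%, 3.903% and 3.891% in the IXA4 libraries, so the groups did not overlap. In all, 60 of the 95 genes that rose were in at least 1 of 29 lists and 35 were in none. The lists were written with earlier results of these data known, so their counts describe the response and are not independent evidence of its direction.

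**Figure D1:**
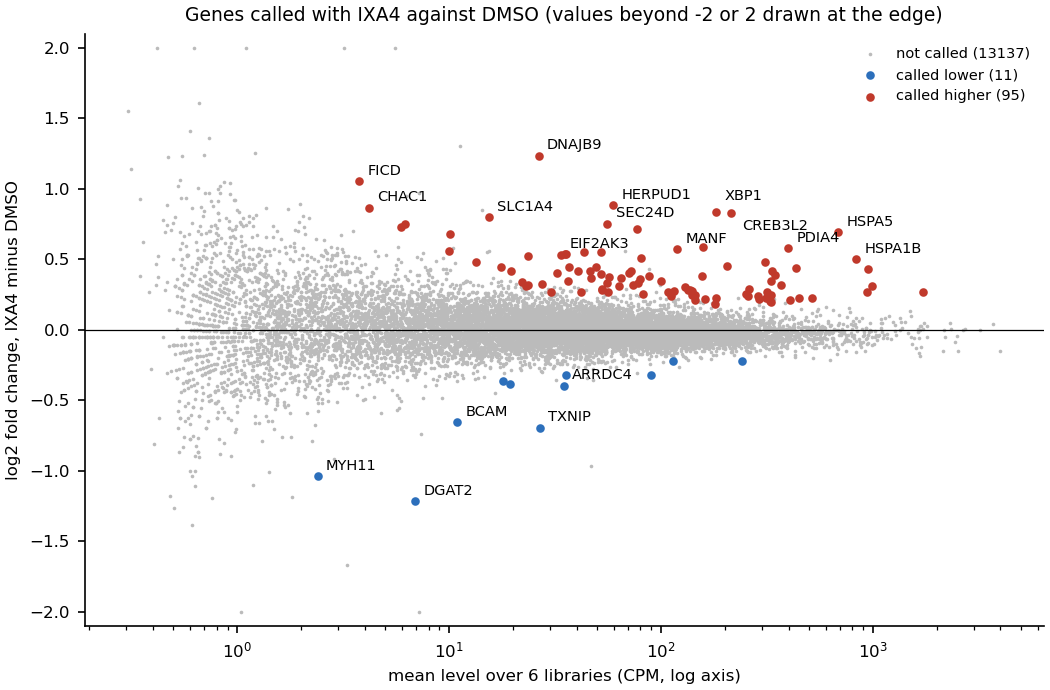
Log2 fold change with IXA4 against DMSO (vertical axis) and mean level in CPM over the 6 libraries (horizontal log axis) for each gene. The 95 genes called higher lie mostly to the right, with DNAJB9 and FICD the only genes called at 2-fold or more above, and DGAT2 and MYH11 the only genes called at 2-fold or more below.

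Library totals were 15123547 to 15331691 counts with DMSO and 15631275 to 15726742 with IXA4, so that depth was slightly higher in every IXA4 library. The part of this gap in the results was not tested beyond the scaling of the counts. Log2 CPM of replicates within these groups correlated at 0.9916 or more across genes, and the biological coefficient of variation was 5.66%. Precision followed the counts of a gene. Among the 4415 genes with the lowest levels the median standard error (SE) of a log2 fold change was 0.187 and 10 genes were called, against 0.0572 and 61 among the 4414 with the highest, so a change of the usual size was not detectable for many low genes. The label HEK293T was checked with 8 genes known from this line, all of them listed. Examples were VIM (368 to 407 CPM) and the neurofilament gene NEFM (139 to 164 CPM). Lower were the keratin genes KRT18 (15.4 to 20.3 CPM) and KRT8 (4.67 to 6.41 CPM), and PAX2 was low at 0.95 to 1.81 CPM. Of 11 markers of blood, endothelium, liver, fibroblasts and muscle, 8 were not listed in the table, CD68 and ACTA2 were below 2.5 CPM, and COL1A1 was at 10.8 to 13.9 CPM. None of the listed markers was called. In bulk RNA, fewer cells of a kind and less RNA per cell cannot be told apart.

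The promoters of 6 genes that rose are printed because 5 of them hold an exact ER stress element and 1, that of the gene with the largest rise, does not. Each is the stretch of 250 bases before the gene's start in RefSeq (GRCh38.p14), read 5′ to 3′ on the gene's strand. They lie at chr22:28800570-28800819 (- strand) for XBP1, chr9:125241344-125241593 (- strand) for HSPA5, chr12:108515027-108515276 (+ strand) for FICD, chr16:56931892-56932141 (+ strand) for HERPUD1, chr11:119057206-119057455 (- strand) for HYOU1 and chr7:108569624-108569873 (+ strand) for DNAJB9. Capitals mark the fixed letters of the ER stress element ERSE (CCAAT and CCACG with 9 bases between them) in the promoters of XBP1, HSPA5 and FICD. In HERPUD1 and HYOU1 they mark the second element, ERSE-II (ATTGG and CCACG with 1 base between them), and in HYOU1 also the UPR element (UPRE, TGACGTGG), whose letters overlap those of an ERSE-II match. Both strands were searched, and the window of DNAJB9 holds none of these complete elements, although CCAAT and CCACG each occur in it apart from such spacing.
XBP1: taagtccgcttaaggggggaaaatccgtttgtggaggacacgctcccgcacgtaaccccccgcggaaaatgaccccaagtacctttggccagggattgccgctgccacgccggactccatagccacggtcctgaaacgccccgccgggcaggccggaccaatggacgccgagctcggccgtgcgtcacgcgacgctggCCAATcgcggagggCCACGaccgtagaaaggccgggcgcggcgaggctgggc
HSPA5: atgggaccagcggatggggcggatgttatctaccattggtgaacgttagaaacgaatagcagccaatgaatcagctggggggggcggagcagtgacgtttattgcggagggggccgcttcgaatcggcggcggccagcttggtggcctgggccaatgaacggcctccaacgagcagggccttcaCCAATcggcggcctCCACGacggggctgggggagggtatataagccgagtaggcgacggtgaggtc
FICD: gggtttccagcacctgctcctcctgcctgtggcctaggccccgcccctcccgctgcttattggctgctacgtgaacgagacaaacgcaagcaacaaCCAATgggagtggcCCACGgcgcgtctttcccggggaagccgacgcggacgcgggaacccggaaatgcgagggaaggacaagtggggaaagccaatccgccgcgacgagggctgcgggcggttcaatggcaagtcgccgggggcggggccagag
HERPUD1: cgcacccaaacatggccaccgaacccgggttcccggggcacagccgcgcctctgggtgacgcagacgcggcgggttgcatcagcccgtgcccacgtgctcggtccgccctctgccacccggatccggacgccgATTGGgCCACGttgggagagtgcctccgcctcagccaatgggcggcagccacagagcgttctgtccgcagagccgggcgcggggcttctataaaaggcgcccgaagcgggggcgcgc
HYOU1: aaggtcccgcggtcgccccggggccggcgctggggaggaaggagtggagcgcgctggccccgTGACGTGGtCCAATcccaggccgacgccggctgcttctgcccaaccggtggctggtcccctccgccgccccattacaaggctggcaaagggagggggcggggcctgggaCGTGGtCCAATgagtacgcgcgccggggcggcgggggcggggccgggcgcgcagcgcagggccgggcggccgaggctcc
DNAJB9: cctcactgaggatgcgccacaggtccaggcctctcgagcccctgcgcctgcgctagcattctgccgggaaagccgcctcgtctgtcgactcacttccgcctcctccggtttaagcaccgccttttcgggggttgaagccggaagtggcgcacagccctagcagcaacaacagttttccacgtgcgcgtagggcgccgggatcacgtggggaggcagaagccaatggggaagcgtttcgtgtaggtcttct

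Among the UPR sensors and transcription factors, 3 of 19 genes rose and none fell, with a median log2 fold change of 0.01 (-0.0019 over all genes tested). XBP1, the target of IRE1, was at 126, 130 and 137 CPM in the DMSO libraries and at 246, 220 and 235 CPM with IXA4. The groups stand well apart, and the fold was 1.78 (log2 fold change 0.84 ± 0.05 SE, adjusted p = 6.69e-11, edgeR). Its counts cover the spliced and the unspliced mRNA together, so they do not give the share of XBP1 that was spliced. CREB3L2, an ER-anchored transcription factor of the CREB3 family, was at 157, 158 and 151 CPM with DMSO and at 287, 269 and 268 CPM with IXA4 (0.83 ± 0.05 SE). EIF2AK3, which encodes the sensor PERK, went from 26.4, 28.1 and 28.1 CPM to 39.8, 41.7 and 38.2 CPM (0.53 ± 0.06 SE, adjusted p = 2.11e-05, edgeR).

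The remaining sensors did not pass the test. ERN1, which encodes IRE1 itself, was at 15.9, 12.8 and 13.7 CPM with DMSO and at 14.1, 15.0 and 12.6 CPM with IXA4, so the groups overlap (adjusted p = 0.969, edgeR). ATF6 and its paralog ATF6B were both at 0.01, and MBTPS1 and MBTPS2, the proteases that release ATF6, were at 0.04 and -0.02 on the log2 scale. RTCB, the ligase that joins the cut XBP1 mRNA, was at -0.09. Apart from ERN1, these genes were named after their values were seen.

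**Figure D2:**
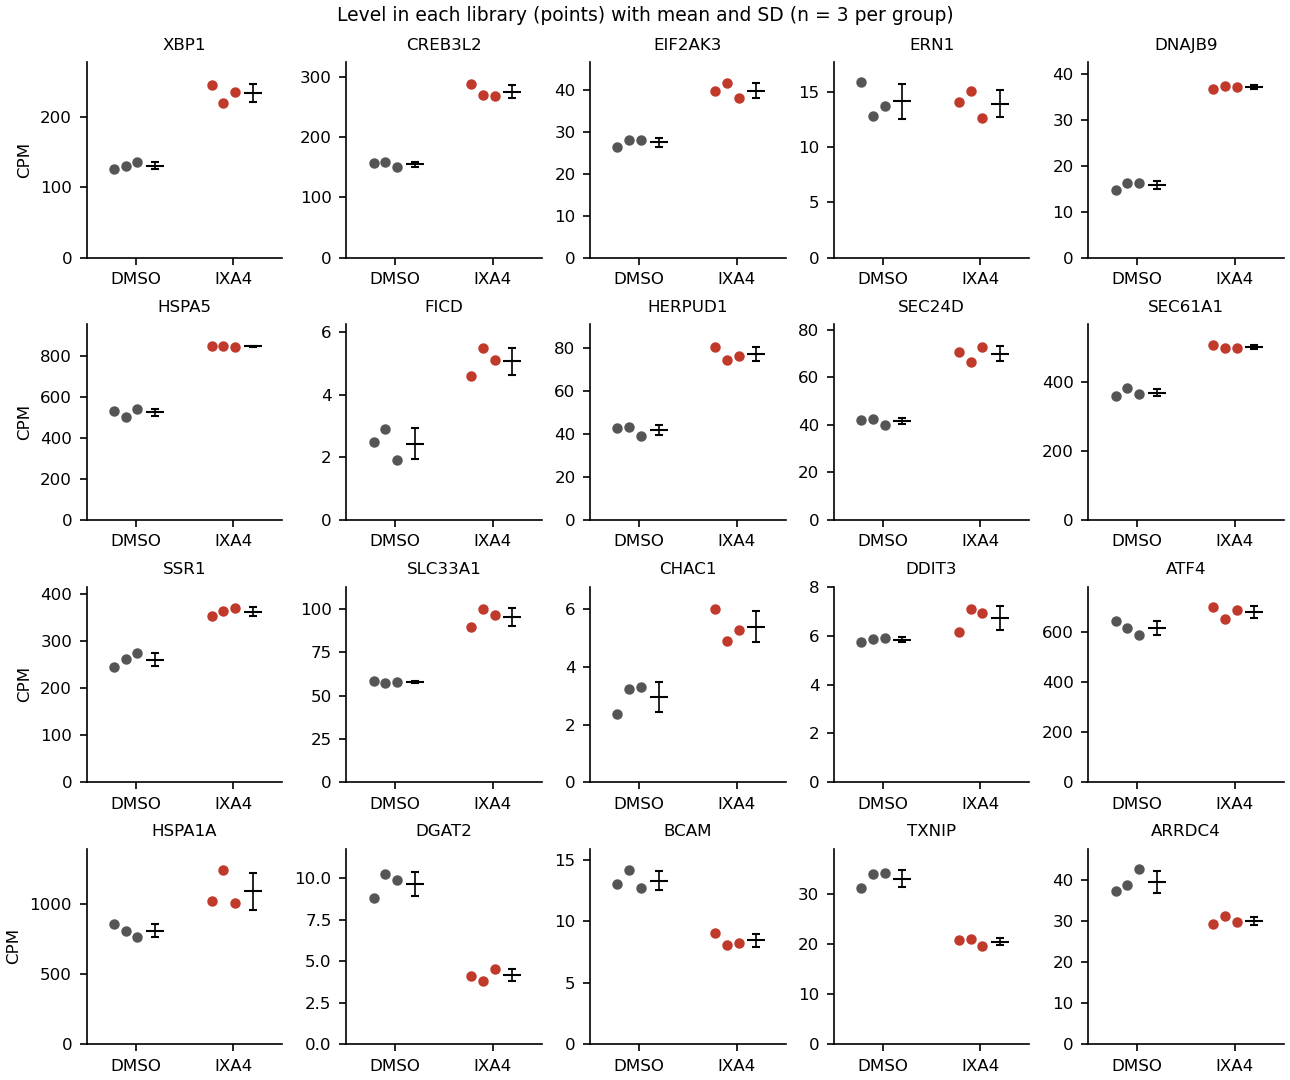
Level in CPM in each of the 3 DMSO and 3 IXA4 libraries (points) with the mean and SD beside them, for 20 genes of the sensors, ER functions, the PERK branch, heat shock and the genes that fell. The groups stand apart in XBP1, DNAJB9, HSPA5 and DGAT2 and overlap in ERN1.

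The gene with the largest rise was DNAJB9, an ER co-chaperone of BiP. It was at 14.7, 16.2 and 16.3 CPM with DMSO and at 36.7, 37.4 and 37.2 CPM with IXA4, which is 2.36-fold (log2 fold change 1.24 ± 0.08 SE, adjusted p = 1.83e-10, edgeR). DNAJB9 overlaps THAP5 on the opposite strand, and THAP5 also passed (0.33 ± 0.07 SE, adjusted p = 0.0267, edgeR). Since it is not stated whether the counting used strand, reads of the pair cannot be told apart, and the smaller value of THAP5, which was called in 1 of the 6 omissions of a library, is uncertain. The same limit holds for other genes named below that overlap a measured gene on the opposite strand. These are HSP90B1, PDIA3, TXNDC11, ERO1B, ERLEC1, DERL3, SEC61A1, SRP19, SRPRB, STT3A, PREB, PLPP5, MYDGF, PPIB and MESDC2 among those that rose, and MYH11 (with NDE1, at -0.06) and SREBF1 (with RAI1, at -0.16) among those that fell. None of the overlapping genes of these 17 was called, although some had values further from 0 than the gene they overlap. SNX22 (with PPIB) was at 0.34, ABHD1 (with PREB) at 0.74 and GPR75-ASB3 (with ERLEC1) at -0.56.

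Of the chaperones and co-chaperones around BiP, 8 of 21 genes rose and the median was 0.15. HSPA5, which encodes BiP, the main HSP70 chaperone of the ER, was at 529, 504 and 539 CPM with DMSO and at 848, 849 and 843 CPM with IXA4. The spread between IXA4 libraries was small (846 ± 3.03 CPM, SD, n = 3), and the fold was 1.62. FICD, which adds and removes AMP on BiP, was low, at 2.50, 2.91 and 1.91 CPM with DMSO, and stood at 4.62, 5.49 and 5.11 CPM with IXA4 (1.05 ± 0.17 SE, adjusted p = 0.000726, edgeR). It overlaps SART3 on the opposite strand, which was at -0.03. The other genes that rose were MANF, a BiP-binding factor that is also secreted (0.57), DNAJC3, a co-chaperone also known as p58IPK (0.51), the large HSP70 relative HYOU1 (0.39), SDF2L1 (0.34 ± 0.08 SE) and HSP90B1, the HSP90 of the ER (0.31). The call of SDF2L1 was lost without DMSO replicate 1 or 2 or IXA4 replicate 2 or 3, with adjusted p of 0.0867 to 0.187 (edgeR). Of the members that did not pass, SIL1, a nucleotide exchange factor of BiP, was at 0.04, and DNAJB11, a co-chaperone, at 0.18.

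Among the protein disulfide isomerases and oxidases, 6 of 23 genes rose and the median was 0.05. PDIA4 was at 324, 316 and 315 CPM with DMSO and at 468, 493 and 465 CPM with IXA4, a fold of 1.49. TXNDC11 rose by 0.45 ± 0.07 SE and ERO1B, an oxidase that recharges the isomerases, by 0.40 ± 0.08 SE. Its paralog ERO1A was at -0.05 and did not pass. PDIA3, P4HB and TXNDC5 rose by 0.29, 0.23 and 0.22. Leaving out each library in turn, TXNDC5 was called in 5 of 6 omissions and P4HB in 2. The call of ERO1B was lost without DMSO replicate 3 (adjusted p = 0.109, edgeR) or IXA4 replicate 2 (adjusted p = 0.111, edgeR).

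The lectin chaperones and glycoprotein quality control genes had 3 of 18 members higher. CANX, the membrane-bound lectin chaperone calnexin, and CALR, its soluble relative calreticulin, both rose by 0.27 ± 0.05 SE. ERLEC1, a lectin of ER-associated degradation, was also at 0.27, but its call was lost without any library of the 6 except IXA4 replicate 2, with adjusted p up to 0.256 (edgeR). EDEM1, which trims mannose from misfolded glycoproteins, was at 58.1, 51.7 and 51.5 CPM with DMSO and at 65.9, 61.9 and 61.9 CPM with IXA4. The groups did not overlap, yet it did not pass (0.23 ± 0.06 SE, adjusted p = 0.0990, edgeR). It passed without DMSO replicate 1 (adjusted p = 0.0369, edgeR) and with DESeq2 (adjusted p = 0.0357). In the authors' deposited table EDEM1 had a log2 fold change of 0.23 and an adjusted p of 0.0404.

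In ER-associated degradation, 5 of 33 genes rose and the median was 0.07. HERPUD1, a membrane protein that organizes the degradation complex, was at 43.0, 43.4 and 39.3 CPM with DMSO and at 80.8, 74.7 and 76.2 CPM with IXA4, which is 1.84-fold (log2 fold change 0.88 ± 0.06 SE, adjusted p = 4.08e-10, edgeR). DERL3, a Derlin of the retrotranslocation site, rose by 0.45 ± 0.10 SE, while its paralogs DERL1 and DERL2 were at 0.07 and 0.13 and did not pass. VIMP, which recruits the ATPase p97, rose by 0.31 and SEL1L, the partner of the ubiquitin ligase HRD1, by 0.27, whereas SYVN1, which encodes HRD1, was at 0.27 and did not pass. VCP, which encodes p97, was at 0.01. The call of DERL3 was lost without DMSO replicate 2 or 3 or IXA4 replicate 2 or 3, with adjusted p of 0.0779 to 0.273 (edgeR).

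For entry into the ER, 5 of 21 genes of the SEC61 translocon and TRAP complex rose. SEC61A1, the pore subunit, was at 360, 381 and 365 CPM with DMSO and at 508, 497 and 497 CPM with IXA4 (0.44 ± 0.05 SE). SSR1, SSR3 and SSR2, subunits of TRAP, rose by 0.48, 0.42 and 0.25, and SERP1, a translocon-associated protein, by 0.45. SERP1 overlaps EIF2A, which was at 0.12 (adjusted p = 0.518, edgeR). The pore's small subunits SEC61B and SEC61G were at 0.21 and 0.13 and did not pass.

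Of the signal recognition particle and signal peptidase genes, 2 of 14 rose, SRP19 by 0.38 ± 0.06 SE and the receptor subunit SRPRB by 0.21 ± 0.05 SE. The call of SRPRB was lost without any library of the 6 except DMSO replicate 3, with adjusted p of 0.0518 to 0.212 (edgeR).

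For N-glycosylation, 1 of 24 genes that build the lipid-linked oligosaccharide rose. This was ALG2, a mannosyltransferase, at 44.8, 39.2 and 42.7 CPM with DMSO and at 59.0, 62.1 and 64.3 CPM with IXA4 (0.55 ± 0.07 SE, adjusted p = 5.04e-05, edgeR). In the oligosaccharyltransferase, 2 of 12 genes rose, OSTC by 0.28 ± 0.06 SE and the catalytic subunit STT3A by 0.20 ± 0.04 SE. The call of OSTC was lost without any library of the 6 except DMSO replicate 3, with adjusted p of 0.0558 to 0.250 (edgeR), and that of STT3A without any except IXA4 replicate 1, with adjusted p of 0.0573 to 0.259. In the supply of sugar nucleotides, 2 of 23 genes rose, GMPPA by 0.35 ± 0.08 SE and GFPT1, the first enzyme of the hexosamine pathway, by 0.32 ± 0.06 SE. The call of GFPT1 was lost without DMSO replicate 2 (adjusted p = 0.0647, edgeR), and that of GMPPA without DMSO replicate 1 or 3 or IXA4 replicate 2 or 3, with adjusted p up to 0.277 (edgeR).

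For transport out of the ER, some genes passed and others did not. Passing did not always go with a larger value, since SEC23B (0.24) passed and SEC24C (0.25) did not. In the list of the COPII coat and ER exit 5 of 19 rose, with SEC24D, a cargo-binding coat subunit, at 41.9, 42.7 and 40.1 CPM with DMSO and at 70.6, 66.6 and 72.9 CPM with IXA4, a fold of 1.69. Its paralogs SEC24A, SEC24B and SEC24C were at 0.01, -0.12 and 0.25 and did not pass. SEC23B rose by 0.24, PREB, which loads the coat GTPase SAR1, by 0.28, and MIA3, an exit-site receptor for bulky cargo, by 0.30, and the fifth member was the transcription factor CREB3L2. PREB was called in 5 of the 6 omissions of a library and SEC23B in 2. In the COPI list 1 of 15 rose, ARFGAP3 (0.28 ± 0.06 SE), which releases the coat and which overlaps PACSIN2 (0.03). Its call was lost without any library of the 6 except DMSO replicate 2, with adjusted p up to 0.158 (edgeR).

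Among cargo receptors and the fusion machinery 7 of 35 rose. BET1, a SNARE of ER-Golgi fusion, was at 34.4, 34.3 and 35.1 CPM with DMSO and at 46.2, 47.5 and 45.1 CPM with IXA4 (0.42 ± 0.07 SE). The p24 cargo receptors TMED7 and TMED10 rose by 0.38 and 0.32, followed by GOLGB1 (0.28), SURF4 (0.27), STX5 (0.27) and USO1 (0.22). USO1 was called in 3 of the 6 omissions of a library, and GOLGB1 and STX5 in 1 each. TMED7 shares sequence with the readthrough gene TMED7-TICAM2, which had 0 CPM in DMSO replicate 2 and IXA4 replicate 1 and 4.74 to 8.52 CPM in the other 4 libraries, while TMED7 was at 130 to 142 CPM with DMSO and 171 to 181 CPM with IXA4.

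**Figure D3:**
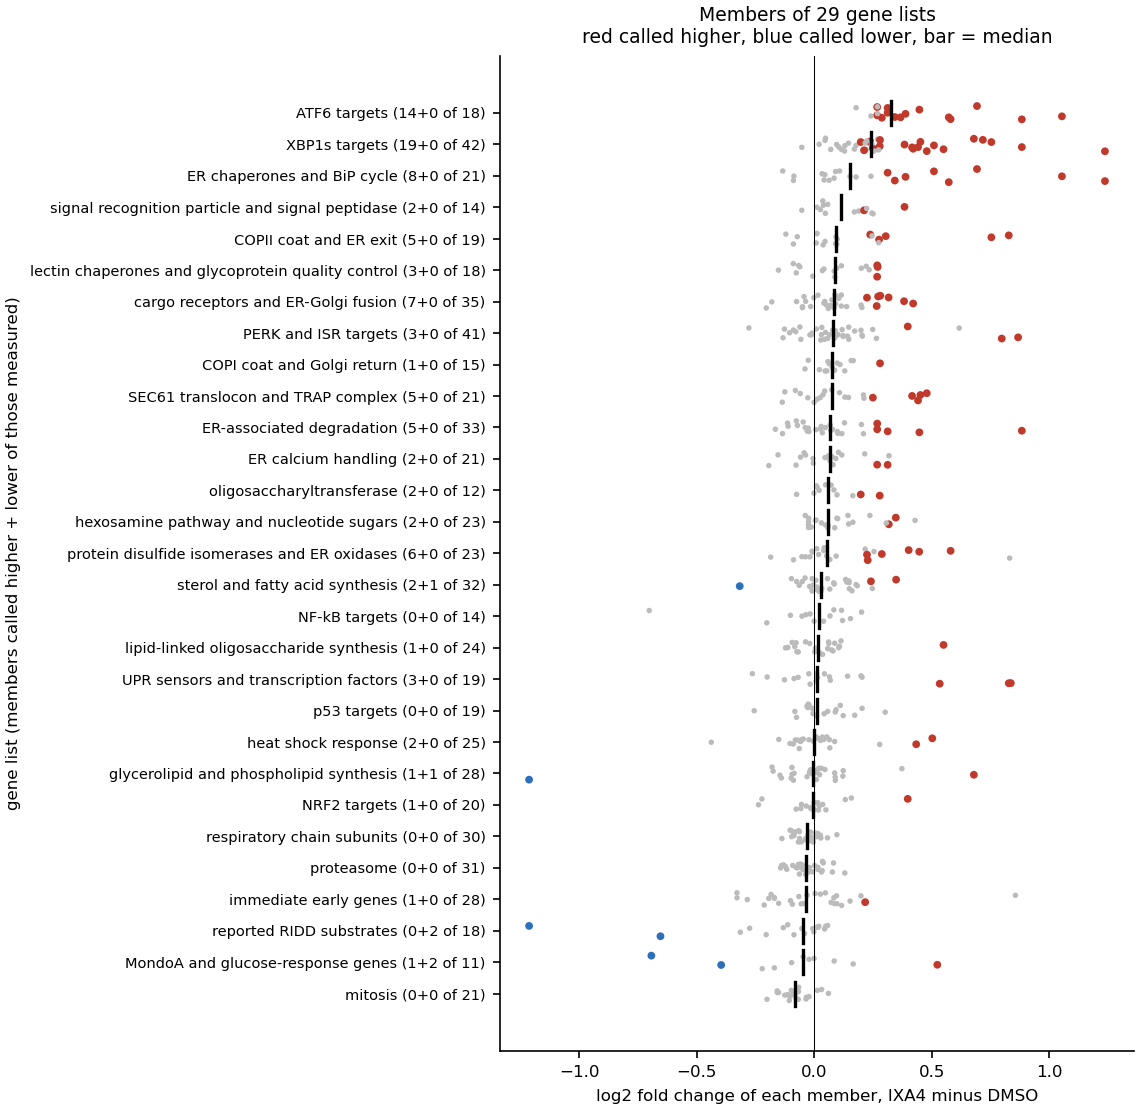
Log2 fold change with IXA4 against DMSO of every measured member of 29 gene lists (points, red called higher, blue called lower, grey not called), with the list's median as a bar and counts of members called beside its name. The medians run from 0.33 for ATF6 targets to -0.08 for mitosis, and most members of every list except the ATF6 targets are grey.

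Sorted by UPR branch, the 3 target lists differed in how many members passed. Of 42 XBP1s targets 19 rose (median 0.24), of 18 ATF6 targets 14 rose (median 0.33) and of 41 PERK and ISR targets 3 rose (median 0.08). None of the members fell, and over all genes tested 0.717% rose. The lists were written with earlier results of these data known, so these counts do not rank the branches. Some genes stand in more than 1 list, since XBP1s and ATF6 share targets such as HERPUD1. All 18 ATF6 targets were above 0, from 0.18 to 1.05, and the 4 that did not pass were SYVN1 (0.27), CRELD1 (0.27), CRELD2 (0.24) and DNAJB11 (0.18). An XBP1s target outside the lists of ER functions was SLC33A1, the acetyl-CoA transporter of the ER, at 58.7, 57.3 and 58.0 CPM with DMSO and at 89.6, 100 and 96.3 CPM with IXA4 (0.72 ± 0.06 SE). PLPP5, a lipid phosphatase, was low, with 7.17, 8.74 and 7.38 CPM against 13.9, 10.97 and 12.4 CPM (0.68 ± 0.11 SE).

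On the PERK side, the 3 genes that rose were CHAC1, SLC1A4 and SLC7A11. CHAC1, which degrades glutathione, was at 2.37, 3.24 and 3.29 CPM with DMSO and at 6.0, 4.92 and 5.30 CPM with IXA4 (0.87 ± 0.15 SE, adjusted p = 0.00193, edgeR). SLC1A4, a carrier of neutral amino acids, was at 11.3, 10.4 and 11.99 CPM and at 20.7, 18.4 and 19.4 CPM (0.80 ± 0.09 SE). SLC7A11, the cystine importer, was at 43.8, 44.5 and 46.9 CPM and at 65.4, 51.0 and 61.5 CPM (0.40 ± 0.07 SE), and its call was lost without IXA4 replicate 1 (adjusted p = 0.0507, edgeR).

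The central genes of that branch did not pass, although for ATF4 and DDIT3 every IXA4 library was above every DMSO library. Such separation upward held for 15 of the 41 members of the list and downward for 3. Over all genes tested it held for 9.20% and 8.90%. Of the 41 members 30 had a log2 fold change above 0, beside 6529 of 13243 over all genes tested. ATF4 was at 643, 615 and 588 CPM with DMSO and at 700, 651 and 685 CPM with IXA4 (0.14 ± 0.05 SE, adjusted p = 0.360, edgeR). DDIT3, which encodes the pro-apoptotic factor CHOP, was at 5.76, 5.89 and 5.93 CPM and at 6.19, 7.11 and 6.94 CPM (0.20 ± 0.12 SE, adjusted p = 0.658, edgeR), and ASNS, asparagine synthetase, was at 0.12 ± 0.05 SE (adjusted p = 0.489, edgeR). In the authors' deposited table ATF4 had a log2 fold change of 0.14 with an adjusted p of 0.0295, and DDIT3 had 0.20 with no adjusted p.

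Outside the ER, 1 or 2 genes rose in each of the heat shock, NRF2 and immediate early lists. This was 8%, 5% and 3.57% of their measured members, beside 0.717% over all genes tested. In the heat shock list 2 of 25 rose, the cytosolic HSP70 genes HSPA1B (730, 689 and 651 CPM with DMSO, 934, 1084 and 913 CPM with IXA4, 0.50 ± 0.08 SE) and HSPA1A (0.43 ± 0.08 SE). These paralogs are nearly identical and can share reads, and the call of HSPA1A was lost without IXA4 replicate 2, the highest library (adjusted p = 0.0621, edgeR). Other heat shock genes such as DNAJB1 (0.00), HSPA8 (-0.15) and HSPH1 (0.01) did not pass. In the NRF2 list 1 of 20 rose, SLC7A11, which is also an ATF4 target, while HMOX1 was at -0.24 ± 0.08 SE (adjusted p = 0.284, edgeR) and NQO1 at 0.02 ± 0.15 SE (adjusted p = 0.980, edgeR). HMOX1 had an adjusted p of 0.0354 in the authors' deposited table, with a log2 fold change of -0.24. Of 28 immediate early genes JUN passed (0.22 ± 0.05 SE), a call lost without DMSO replicate 1 or 2 or IXA4 replicate 1 or 2, with adjusted p of 0.0805 to 0.212 (edgeR).

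Of 14 NF-kB targets, 19 p53 targets, 31 proteasome subunits, 30 respiratory chain subunits and 21 mitosis genes none passed. Over all genes tested 0.800% were called, so lists of this size without a call are near that share. They do not show a lack of response. The mitosis genes had a median of -0.08, with 3 of 21 above 0 and with IXA4 libraries all below DMSO libraries in 8 of 21. Over all genes tested, 6529 of 13243 were above 0 and the libraries were separated downward in 8.90%. The proteasome and respiratory chain medians were -0.04 and -0.03.

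Of the 11 genes that fell, DGAT2, an enzyme of triacylglycerol synthesis, fell the most. It was at 8.83, 10.2 and 9.88 CPM with DMSO and at 4.12, 3.80 and 4.55 CPM with IXA4 (log2 fold change -1.21 ± 0.16 SE, adjusted p = 8.51e-05, edgeR), and the groups stand well apart. BCAM, a laminin-binding adhesion receptor, was at 13.1, 14.2 and 12.7 CPM and at 9.06, 8.10 and 8.21 CPM (-0.65 ± 0.11 SE, adjusted p = 0.00198, edgeR). Both are in the list of reported RIDD substrates, which was written with these falls known, and they were the only 2 of its 18 measured members that passed. BLOC1S1, a widely used readout of RIDD, was at 34.2, 35.6 and 39.1 CPM with DMSO and at 33.6, 33.9 and 37.5 CPM with IXA4 (-0.05 ± 0.09 SE, adjusted p = 0.895, edgeR), so the groups overlap. The list's median was -0.05. In glycerolipid synthesis, DGAT2 fell and PLPP5 rose, and the other 26 of 28 genes did not pass, with DGAT1, the second acyltransferase of this step, at 0.02.

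TXNIP and ARRDC4, arrestin-like genes that the glucose-sensing factor MondoA controls, both fell. TXNIP, which limits glucose uptake, was at 31.1, 33.9 and 34.1 CPM with DMSO and at 20.8, 20.9 and 19.6 CPM with IXA4 (-0.69 ± 0.09 SE, adjusted p = 4.47e-05, edgeR). ARRDC4 was at 37.3, 38.6 and 42.6 CPM and at 29.2, 31.2 and 29.7 CPM (-0.40 ± 0.07 SE, adjusted p = 0.00394, edgeR). Their relative ARRDC3 went the other way, from 18.9, 19.6 and 19.6 CPM to 27.8, 26.6 and 28.98 CPM (0.52 ± 0.10 SE, adjusted p = 0.00691, edgeR), a call lost without IXA4 replicate 3 (adjusted p = 0.0536). The other 8 of the 11 genes in that list did not pass, MLXIP, which encodes MondoA, among them (-0.05).

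In sterol and fatty acid synthesis, IDI1, an isomerase of the mevalonate pathway, rose by 0.35 ± 0.06 SE and INSIG1, which retains the SREBP escort in the ER, by 0.24 ± 0.05 SE, while SREBF1 was lower (-0.32 ± 0.08 SE, adjusted p = 0.0487, edgeR). The remaining 29 of the 32 genes did not pass, FASN, the fatty acid synthase, among them (-0.10). The call of INSIG1 was lost without DMSO replicate 1 or 2 or IXA4 replicate 1 or 3, with adjusted p up to 0.118 (edgeR). The call of SREBF1 was lost without any library of the 6 except DMSO replicate 2, with adjusted p up to 0.275 (edgeR).

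The other falls were MYH11, a smooth muscle myosin (2.43, 3.49 and 3.76 CPM with DMSO, 1.75, 1.62 and 1.33 CPM with IXA4, -1.04 ± 0.25 SE), the receptor gene NOTCH3 (-0.38), the ephrin gene EFNB3 (-0.36), the glutamate transporter gene SLC1A3 (-0.32), and CCAR1 and RDH11, both at -0.22, which were named after their values were seen. These calls were close to the threshold. MYH11 lost its call without any library of the 6 except DMSO replicate 1 (adjusted p up to 0.250, edgeR), and NOTCH3 without any of the 6 (up to 0.181). EFNB3 lost it without any except DMSO replicate 2 (up to 0.181), and SLC1A3 without DMSO replicate 2 or 3 or IXA4 replicate 1 or 2 (up to 0.250). CCAR1 and RDH11 were called in 1 of the 6 omissions each. ARRDC4, TXNIP, BCAM and DGAT2 were called whichever library was left out.

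Of the 35 genes that rose and are in no list, the largest rises were in IMMP1L (0.75 ± 0.16 SE), a mitochondrial inner membrane peptidase subunit, and PRSS16 (0.73 ± 0.16 SE), a serine protease. Both were under 10 CPM. The call of IMMP1L was lost without DMSO replicate 1 or 2 or IXA4 replicate 1 or 3 (adjusted p up to 0.229, edgeR), and that of PRSS16 without DMSO replicate 2 or IXA4 replicate 2 or 3 (up to 0.177). HSPA13, an HSP70-like protein of microsomes, was at 129, 123 and 125 CPM with DMSO and at 188, 182 and 198 CPM with IXA4 (0.59 ± 0.06 SE, adjusted p = 4.71e-06, edgeR). COG3, a subunit of the Golgi tethering complex COG, was at 37.2, 33.3 and 34.4 CPM and at 52.5, 48.8 and 52.97 CPM (0.56 ± 0.07 SE), and UGDH, which makes UDP-glucuronate, was at 27.4, 30.5 and 29.5 CPM and at 40.9, 41.0 and 45.2 CPM (0.54 ± 0.07 SE). SMIM14, CDK2AP2 and TSPYL2 rose by 0.56, 0.54 and 0.45.

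RWDD2A rose by 0.48 ± 0.10 SE, a call lost without DMSO replicate 2 (adjusted p = 0.0947, edgeR). It overlaps PGM3 on the opposite strand, an enzyme of the hexosamine pathway that was itself at 0.43 without passing (adjusted p = 0.248, edgeR), so its value is uncertain. Further genes of this kind, chosen after their values were seen, encode proteins known from the ER or Golgi, such as TMEM39A (0.41), MYDGF (0.37), GOLPH3L (0.36), UFM1 (0.33), the prolyl isomerases FKBP14 (0.29) and PPIB (0.22), MESDC2 (0.25), the golgin GOLGA5 (0.25), GORASP2 (0.21) and the ER lectin MLEC (0.21). Of these, TMEM39A, MYDGF, GOLPH3L and UFM1 held without each of the libraries in turn, PPIB in 4 of the 6 omissions, MESDC2 and MLEC in 2 each, and FKBP14, GOLGA5 and GORASP2 in 0.

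The letters of the ER stress elements were counted in the RefSeq promoter windows (250 bases before to 50 after the start), which were at hand for 10716 of the genes tested, 87 of the 95 that rose and 8 of the 11 that fell. ERSE was found in 15 (0.14%) of all windows and in 8 (9.2%) of those of genes that rose. Its holders that rose were FICD, XBP1, HSPA5, SERP1, ERO1B, HSP90B1 (with 2 matches), CANX and CALR. The other holders did not pass, with CRELD2 at 0.24 and the rest at 0.05 to 0.54. ERSE-II was found in 10 (0.0933%) of all windows and in 3 (3.45%) of those of genes that rose, HERPUD1, HYOU1 (with 2 matches) and SDF2L1. The UPRE letters were found in 101 (0.943%) and 9 (10.3%). None of the 3 was found in the 8 windows of genes that fell, but with elements this rare 8 windows are too few to show a difference from all windows.

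Any of the 3 elements was found in 125 (1.17%) of all windows and in 19 (21.8%) of those of genes that rose, so most genes that rose hold none in this window. The short core CCACG, in contrast, was in 50% of all windows and in 72.4% of those of genes that rose. In the windows printed above, the ERSE match ends 34 bases before the start in XBP1, 48 bases before it in HSPA5 and 136 bases before it in FICD. A match describes letters and does not show that a factor binds there.

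**Figure D4:**
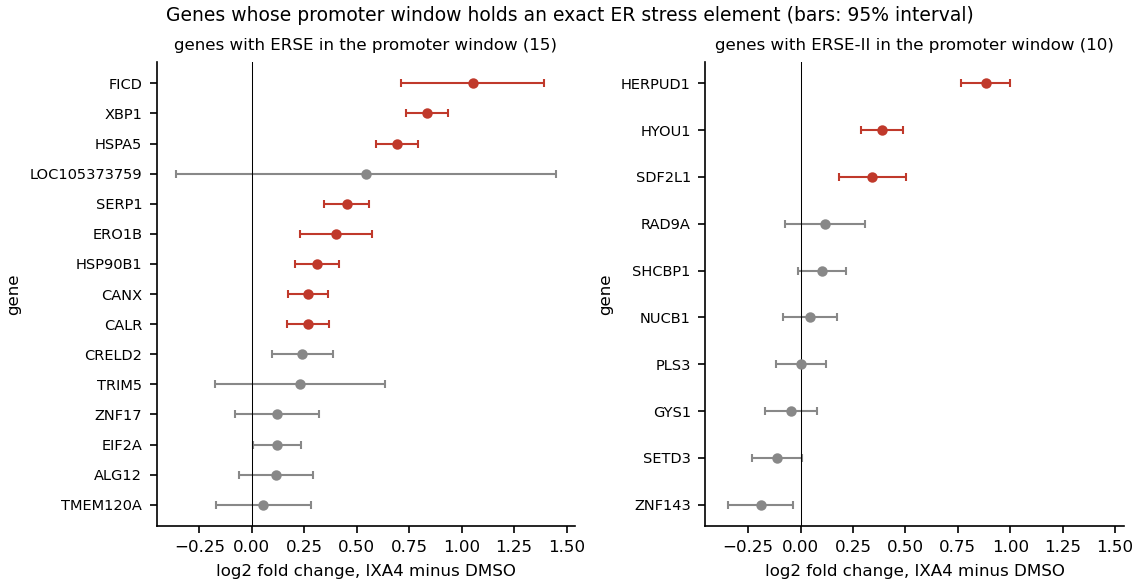
Log2 fold change with its 95% interval for every tested gene whose promoter window holds an exact ERSE (left, 15 genes) or ERSE-II (right, 10 genes), red where called higher with IXA4 and grey where not called. Of the ERSE holders 8 are called, from CALR at 0.27 to FICD at 1.05, and of the ERSE-II holders 3.

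The authors' deposited table for IXA4 gives 204 genes with an adjusted p under 0.05, 146 higher and 58 lower, out of 9647 with an adjusted p. Of the 106 genes called here, 96 also pass in the authors' deposited table, which is 90.6% of the genes called here and 47.1% of the authors' list. All 106 have the same sign in both, and 6 of them, such as DGAT2, have no adjusted p in the authors' deposited table. The sign compared is that of the log2 fold change. The authors' deposited table does not name its reference group, and its test statistic has the opposite sign to its log2 fold change in all 13243 genes, so the direction was taken from the counts.

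IXA4 was then set directly against the other compounds at the same time point, without the DMSO libraries. Since no doses are given in the sources used here, a difference between compounds and one between doses cannot be told apart. Against IXA6, 0 of 13243 genes were called with edgeR (0%), with 1222 (9.23%) at an unadjusted p under 0.05 and a smallest adjusted p of 0.0588. DESeq2 called 21 genes (5 higher, 16 lower) and a fit of these 6 libraries alone called 13 (3 higher, 10 lower), with 10 called by both. Of the 251 ER and secretory genes, 23 (9.16%) had a 95% interval of the difference without 0, 10 above and 13 below it, a share near that over all genes. The interval reached a median of 0.125 to either side of the difference on the log2 scale, and 0.814 at the widest. XBP1 differed by 0.01 (95% interval -0.09 to 0.10), HSPA5 by -0.02 (-0.11 to 0.08) and DNAJB9 by -0.06 (-0.20 to 0.09) on the log2 scale.

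The panel's widest gap between IXA4 and IXA6 was in CHAC1, at 5.41 ± 0.55 CPM with IXA4 and 2.95 ± 0.58 CPM with IXA6 (SD, n = 3 each), a difference of 0.88 ± 0.15 SE that passed with DESeq2 (adjusted p = 0.00121) and not with edgeR (adjusted p = 0.0588). TXNIP was lower with IXA4 by -0.45 ± 0.09 SE (adjusted p = 0.0747, edgeR, and 0.00557, DESeq2). Its relative ARRDC4, named after its values were seen, differed by -0.39 (adjusted p = 0.0621, edgeR, and 0.00167, DESeq2).

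Against IXA1, 342 genes differed (2.58%), 90 higher (0.680%) and 252 lower (1.90%) with IXA4, and 2289 (17.3%) had an unadjusted p under 0.05. Of 41 PERK and ISR targets 11 were lower with IXA4 and 0 higher. CHAC1 differed the most, at 5.41 ± 0.55 CPM with IXA4 and 12.2 ± 0.51 CPM with IXA1 (SD, n = 3 and 2, difference -1.18 ± 0.13 SE, adjusted p = 1.57e-05, edgeR), followed by SESN2, an inhibitor of mTORC1 (-0.69 ± 0.09 SE). The others were SLC6A9 (-0.59), DDIT4 (-0.58), STC2 (-0.51), SLC7A11 (-0.39), CTH (-0.36), SLC7A5 (-0.27), SLC1A5 (-0.27), ATF4 (-0.25) and GARS (-0.22), chosen after their values were seen except for ATF4. Of the 251 ER and secretory genes 8 differed (3.19%), near the share over all genes. Lower with IXA4 were KDELR1 (-0.35), SYVN1 (-0.29), GANAB (-0.28), DPM2 (-0.25) and SEC24B (-0.23), and higher were ERO1B (0.47), ARFGAP2 (0.32) and SERP1 (0.21), most of them named after their values were seen. Of the UPR genes of the panel, XBP1 was lower with IXA4 by -0.20 ± 0.05 SE (adjusted p = 0.0415, edgeR), HSPA5 differed by 0.05 (95% interval -0.06 to 0.15) and DNAJB9 by 0.08 (-0.08 to 0.24).

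TXNIP was higher with IXA4 than with IXA1 (0.63 ± 0.11 SE), as was HSPA1B (0.34 ± 0.09 SE). The 4 largest differences upward were TMOD1 (1.1), GALNTL6 (1.00), PALM2 (0.85) and C12orf60 (0.85), and NOVA2 (-0.88) and TSTD2 (-0.71) were among those downward. GALNTL6, PALM2, C12orf60 and NOVA2 were low, with means of 1.92 to 5.70 CPM with IXA4 and 2.23 to 3.53 CPM with IXA1. TMOD1 and TSTD2 overlap each other in the RefSeq gene table, so their values are uncertain. This comparison leans on the 2 IXA1 libraries, and the count fell to 11 without IXA1 replicate 1, to 23 without IXA1 replicate 2, and to 166, 108 and 73 without IXA4 replicates 1, 2 and 3.

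Against thapsigargin, which empties the ER calcium store and sets off the whole UPR, 4556 genes differed (34.4%), 2125 higher (16.0%) and 2431 lower (18.4%) with IXA4, and 5771 (43.6%) had an unadjusted p under 0.05. All 18 ATF6 targets, 38 of 42 XBP1s targets and 39 of 41 PERK and ISR targets were lower with IXA4. DDIT3 was at 6.75 ± 0.49 CPM with IXA4 and at 113 ± 1.99 CPM with Tg (SD, n = 3 each, difference -4.07 ± 0.09 SE), and CHAC1 at 5.41 ± 0.55 and 69.1 ± 2.87 CPM (-3.67 ± 0.10 SE). XBP1 was at 234 ± 12.8 CPM with IXA4 and at 485 ± 8.06 CPM with Tg (-1.05 ± 0.05 SE), and HSPA5 differed by -2.64 ± 0.05 SE. The median differences of the lists were -0.55 for XBP1s targets, -1.63 for ATF6 targets and -1.31 for PERK and ISR targets, beside 0.01 over all genes.

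Some genes were higher with IXA4 than with Tg. DGAT2 was at 4.16 ± 0.37 CPM with IXA4 and at 0.789 ± 0.38 CPM with Tg (2.39 ± 0.25 SE), and COL26A1, a collagen gene, differed by 2.01 ± 0.25 SE. HSPA1A was at 1093 ± 133 CPM with IXA4 and at 292 ± 36.4 CPM with Tg (SD, n = 3 each, 1.90 ± 0.08 SE). HSPA1B was at 977 ± 93.4 and 258 ± 25.8 CPM (1.92 ± 0.08 SE). With Tg, HSPA1B lay below its DMSO levels given above, so its difference is not a rise with IXA4 alone. Of the 25 heat shock genes 12 were higher and 4 lower with IXA4. BLOC1S1 differed by 0.30 ± 0.09 SE, and 8 of the 18 reported RIDD substrates were higher and 2 lower with IXA4. Over all genes tested, 16.0% were higher and 18.4% lower with IXA4 than with Tg. TXNIP was lower with IXA4 than with Tg (-1.11 ± 0.09 SE). The share of counts on the 251 ER and secretory genes was 5.784% to 5.857% with Tg, beside 3.891% to 3.903% with IXA4. Of the largest differences upward, RUSC1-AS1 (2.43) and TMEM140 (2.43) rest on uneven IXA4 libraries, with TMEM140 at 23.5, 1.81 and 1.70 CPM. Without a stated strand setting, reads of the antisense gene RUSC1-AS1 cannot be told apart from those of RUSC1. Among the largest downward were LBH (-4.04) and NUPR1 (-3.48), a stress-induced chromatin protein at 0.355 ± 0.075 CPM with IXA4.

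**Figure D5:**
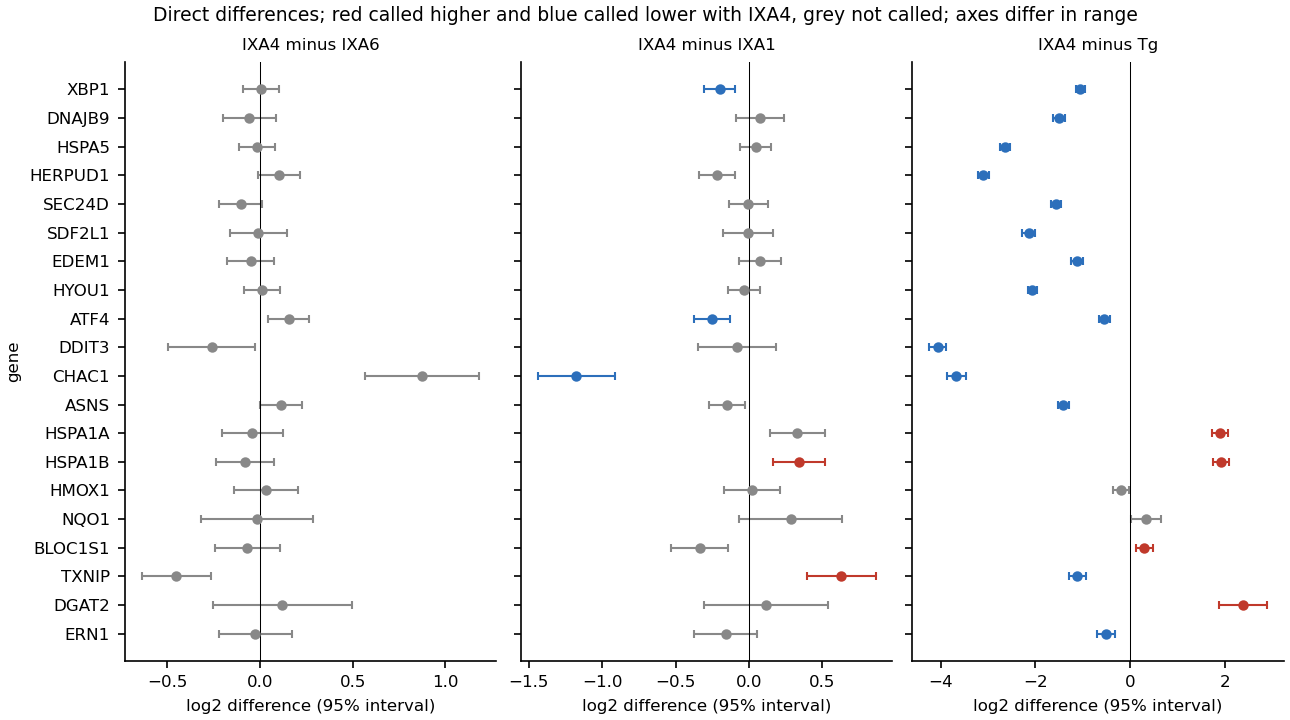
Log2 difference between IXA4 and IXA6, IXA1 or Tg with its 95% interval for the 20 genes of the panel, red where called higher and blue where called lower with IXA4, on axes of different range. No panel gene is called against IXA6, CHAC1 (-1.18) stands apart against IXA1, and the ER and PERK genes lie to the left of 0 against Tg while HSPA1A, HSPA1B and DGAT2 lie to the right.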

How the data were processed

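RNA-seq was done on HEK293T cells after 4 h at 37 °C with vehicle or a compound. The authors deposited raw counts by gene symbol, whole numbers with totals of 14160321 to 15726742 per library used. Per the submitters' processing notes the build was GRCh37.p13 and DESeq was used. The aligner, the counter and the strand setting of the counting are not given in the sources used. The authors' deposited table for IXA4 holds, per the file headers, log2 fold changes and their p-values, unadjusted and adjusted, and was only set beside the results. Of 15 count columns, 1 matched no sample title and was not used, so IXA1 has 2 libraries. In 22 rows (0.249% to 0.282% of counts) the gene name had become a date, and these were tested but never named. No gene has fewer than 73 counts over the libraries used.

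The 14 libraries were fitted with edgeR 4.0.16 under R 4.3.3, using TMM normalization, the default filter (0 genes removed) and the quasi-likelihood test in 1 model of all groups with no further covariates. P-values were adjusted by Benjamini-Hochberg over all 13243 genes of each of 4 comparisons at 0.05. CPM are counts relative to library size, scaled by TMM, and the 95% intervals of differences come from the same fit. Alternatives were DESeq2 1.42.0, RLE size factors, other filters, a minimum fold of 1.2, the replicate number as a block, the compared libraries alone, and leaving out each library.

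Genes named against DMSO are the 12 largest rises and 8 largest falls (mean of at least 2 CPM, libraries not overlapping), the 3 largest called changes of each list, the 10 largest in no list, and a panel of 20 genes. In direct comparisons they are the 4 largest each way and the panel. The members and lists were chosen with earlier results of these data known. Of 705 list memberships 29 had no measured gene and 18 were matched by another symbol. A list is described by its counts and its median, with no test of its own. Promoter windows are from RefSeq (GRCh38.p14). A GENCODE annotation of that build served only to find overlapping genes and their strands.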

Additional observations from a re-analysis of the deposited data

How the results depend on the processing

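Against DMSO, DESeq2 gave 138 calls (119 higher, 19 lower), of which 104 were among the 106, RLE size factors 109, no filter 106 and a stricter filter 108. A minimum fold of 1.2 left 21 (19 higher, 2 lower) and a fit of the 6 libraries alone gave 198 (154 higher, 44 lower). Leaving out 1 library at a time gave 69 to 95 calls (61 to 84 higher, 4 to 11 lower), the lowest without DMSO replicate 2. Of the 106 calls, 55 held without each of the 6 libraries in turn, and 21 in all 13 settings. Of the values of the 71 named genes under these settings, 788 stayed on the same side of the threshold with the same direction, 132 were no longer called, 3 were newly called and 0 reversed. Of 377 list medians, 54 moved by more than the spread between replicates. With IXA4 and DMSO replicates of the same number, deviations from the group means correlated at -0.11, -0.12 and -0.0908. No library correlated best with its own number, and the samples share only a number. The highest correlations joined IXA4 replicate 1 with DMSO replicate 2 (0.151), 3 with 1 (0.133) and 2 with 3 (0.127). Whether libraries of these pairs were handled together is not stated, and a fit with such pairs was not run. With the replicate block there were 96 calls against DMSO (86 higher, 10 lower), 0 against IXA6, 339 against IXA1 and 4453 against Tg. Against IXA6, DESeq2 gave 21 and the libraries compared alone 13, and leaving out single libraries gave 0 to 2, with 2 without IXA4 replicate 3 and 2 without IXA6 replicate 1. Against IXA1, DESeq2 gave 594, the minimum fold of 1.2 gave 4, the libraries compared alone gave 1156, and leaving out single libraries gave 11 to 166, with only 2 IXA1 libraries to leave out. Against Tg the minimum fold gave 1123, and leaving out single libraries gave 3687 to 4626. The causes of these shifts were not tested. Where a group was left with 1 library, it was assumed to vary like the other groups. Depth limits low genes.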

Other observations

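In 15 genes that averaged 2 CPM or more across the 6 libraries, replicates of the same treatment differed by more than 4-fold after 1 CPM was added, and 0 of these 15 was called with IXA4 against DMSO. SYNC was at 0.45, 33.8 and 33.6 CPM in the DMSO libraries and at 38.1, 34.6 and 0.25 CPM in the IXA4 libraries. CHMP3, a subunit of the ESCRT machinery, was at 87.5, 5.37 and 93.1 CPM and at 6.37, 83.4 and 5.49 CPM. ATP6V1C2, a subunit of the vacuolar proton pump, was at 52.9, 55.7 and 6.46 CPM and at 63.2, 6.61 and 62.0 CPM. The readthrough gene HSPE1-MOB4 was at 20.1, 19.4 and 21.1 CPM with DMSO and at 0, 20.3 and 20.5 CPM with IXA4. In each of these 4 genes, chosen after their values were seen, the libraries lay at a high or a low level, and the low level appeared in different replicates from gene to gene. Others of the 15 lay along a range, such as ZSCAN30 at 18.9, 2.14 and 1.58 CPM with DMSO and at 6.19, 9.85 and 8.14 CPM with IXA4.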
